A study of Mus musculus with 2 samples.

Results

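The genes of the DEAD and DEAH box RNA helicases were examined in a map of Sap130 binding in mouse hearts at stage E12.5. Members were the protein-coding genes of the RefSeq annotation of build GRCm38 whose symbol is Ddx or Dhx followed by a digit, 53 of 21779 genes, of which 37 were Ddx and 16 Dhx genes. All samples came from C57BL/6 embryonic heart with no treatment named. One chromatin immunoprecipitation library was made with 2 µg of a rabbit antibody to Sap130, and 1 input library had no antibody and entered only through the authors' peak calling. There was no replicate, so no difference below carries a test. Exact intervals only describe how small a count is, since the genes of a role or list are neither random draws nor replicates. Whether an interval holds or leaves out the share of all genes is therefore no test of a difference. The peak list gives no expression values, so the tissue label could not be checked against cell markers, and the labels give neither the number nor the sex of the embryos.

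RNA helicases of these families use ATP to unwind RNA duplexes or to strip proteins from RNA, and are named after a short run of amino acids in their ATPase core. DEAD box proteins mostly open short duplexes locally, whereas DEAH box proteins move along a strand. They work at almost every step in the life of an RNA, in the nucleolus, the spliceosome, the nuclear pore, the ribosome and in RNA decay. Some act mainly in germ cells, and others sense viral RNA. Sap130 belongs to the Sin3 corepressor, whose histone deacetylases take acetyl groups off histones at promoters.

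The authors' list holds 14886 entries of 1 base each, taken as peak summits. Each has a score on the −log10 scale of significance (p or q, which of them is not stated), from 2.1 to 428, and all scores below are the authors'. A gene was counted as carrying a summit when 1 lay within 1000 bp of either gene boundary or inside the gene. Where a gene had several, the highest score is given.

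All 16 helicase genes placed in the nucleolar role and all 12 in the splicing role carried Sap130 summits. The 3 in the germline role carried none, and the 3 in the antiviral role carried 1 weak summit. The exact intervals of these last 2 small roles, given below, hold the share of all protein-coding genes. Roles were chosen with earlier results of these data known, and each member was given 1 role. In all, 47 of 53 members had a summit (88.7%, exact 95% interval 77.0 to 95.7), against a background of 55.0% of all protein-coding genes. The median score over the 47 was 83.7, against 48.9 over all genes with a summit. The 6 members without one were Ddx4, Ddx25, Ddx43, Ddx60, Dhx58 and Ddx3y. Within 1000 bp of a boundary, leaving out deeper positions, 42 members had a summit (background 48.4%). By family, 32 of 37 Ddx and 15 of 16 Dhx genes had one.

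Gene length, which sets how much room there is for a summit, was set beside these counts. The median member was 22833 bp long, and the median gene 17217 bp. Of 7 members up to 10000 bp, 6 had a summit, where 35.8% of all genes of that length did. Among members over 10000 and up to 50000 bp the count was 36 of 39 (all genes 61.9%), and over 50000 bp it was 5 of 7 (all genes 72.9%).

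The promoters of 8 members are shown, to set the highest scores beside germline and antiviral members with no or a weak summit. Not shown are Dhx34, with a weak summit (7.77), and Ddx3y, with none, which belong to another role. Dhx58, an antiviral member without a summit, had no listed start. Each sequence is the 250 bases before the listed transcription start, 5′ to 3′ on the gene's own strand, from RefSeq on build GRCm38.p6, with CpG dinucleotides in capitals. The first 3 are the members of highest score, with 25, 18 and 25 CpG.
Ddx21, chr10:62602299-62602548, minus strand: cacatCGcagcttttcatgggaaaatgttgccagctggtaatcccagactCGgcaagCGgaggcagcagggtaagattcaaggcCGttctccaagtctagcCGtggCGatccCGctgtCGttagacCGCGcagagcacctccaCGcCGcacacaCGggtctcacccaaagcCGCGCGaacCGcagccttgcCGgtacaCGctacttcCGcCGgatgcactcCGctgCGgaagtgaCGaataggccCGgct
Dhx33, chr11:71004433-71004682, minus strand: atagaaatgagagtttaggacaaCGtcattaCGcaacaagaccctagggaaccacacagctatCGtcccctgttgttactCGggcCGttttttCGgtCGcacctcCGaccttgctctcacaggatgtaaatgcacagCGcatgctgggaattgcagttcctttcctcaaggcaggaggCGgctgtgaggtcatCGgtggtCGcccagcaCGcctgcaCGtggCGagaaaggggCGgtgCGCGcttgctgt
Ddx31, chr2:28840156-28840405, plus strand: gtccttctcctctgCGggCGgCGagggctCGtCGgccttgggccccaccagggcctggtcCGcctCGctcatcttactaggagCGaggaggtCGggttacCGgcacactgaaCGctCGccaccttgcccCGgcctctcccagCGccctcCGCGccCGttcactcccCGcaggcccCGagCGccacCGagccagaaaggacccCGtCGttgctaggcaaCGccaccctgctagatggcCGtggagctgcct
The next 3 belong to the germline members, none of which had a summit, and hold 31, 34 and 20 CpG.
Ddx4, chr13:112652311-112652560, minus strand: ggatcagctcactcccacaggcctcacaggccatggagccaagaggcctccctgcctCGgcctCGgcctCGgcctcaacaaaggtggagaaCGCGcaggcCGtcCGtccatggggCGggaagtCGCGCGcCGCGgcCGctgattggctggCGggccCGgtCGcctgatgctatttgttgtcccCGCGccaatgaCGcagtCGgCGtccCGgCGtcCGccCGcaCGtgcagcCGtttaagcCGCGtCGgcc
Ddx25, chr9:35558471-35558720, minus strand: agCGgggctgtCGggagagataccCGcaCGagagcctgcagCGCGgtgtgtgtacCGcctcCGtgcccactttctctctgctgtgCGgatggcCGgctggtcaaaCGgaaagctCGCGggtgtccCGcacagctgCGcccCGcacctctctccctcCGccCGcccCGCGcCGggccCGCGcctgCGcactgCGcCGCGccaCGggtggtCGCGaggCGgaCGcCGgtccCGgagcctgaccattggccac
Ddx43, chr9:78395527-78395776, plus strand: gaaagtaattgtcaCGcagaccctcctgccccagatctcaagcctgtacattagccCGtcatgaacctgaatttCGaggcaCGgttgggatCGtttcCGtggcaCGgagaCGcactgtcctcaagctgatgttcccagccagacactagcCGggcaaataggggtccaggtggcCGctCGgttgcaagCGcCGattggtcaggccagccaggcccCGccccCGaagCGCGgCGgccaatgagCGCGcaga
The last 2 belong to antiviral members, Ddx58 with a weak summit and Ddx60 with none, and hold 12 and 5 CpG.
Ddx58, chr4:40239826-40240075, minus strand: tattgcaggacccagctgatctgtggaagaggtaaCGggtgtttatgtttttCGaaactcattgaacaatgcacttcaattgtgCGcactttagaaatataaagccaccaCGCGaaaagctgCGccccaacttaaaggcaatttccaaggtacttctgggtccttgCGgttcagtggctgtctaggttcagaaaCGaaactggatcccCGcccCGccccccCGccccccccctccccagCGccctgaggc
Ddx60, chr8:61927837-61928086, plus strand: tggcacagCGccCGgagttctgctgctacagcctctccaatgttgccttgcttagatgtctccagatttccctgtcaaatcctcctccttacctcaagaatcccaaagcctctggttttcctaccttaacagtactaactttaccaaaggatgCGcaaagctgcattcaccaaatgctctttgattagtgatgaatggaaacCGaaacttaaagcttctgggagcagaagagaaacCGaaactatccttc

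Nucleolar helicases unwind ribosomal RNA precursors and help small nucleolar RNAs come off them. All 16 genes of this role had a summit (exact interval 79.4 to 100%), with scores from 26.0 to 275 and a median of 121. A score at or above the median of all genes with a summit was found for 15 of the 16 (36 of the 47 members with a summit, background 50.1%). Ddx21, which acts in both ribosomal RNA transcription and processing (chromosome 10, 62580247 to 62602298), had the highest score of all members, 275, at a summit 168 bp downstream of its start at 62602298, the start next to the first sequence above. That score ranked 16 among the 11972 genes with a summit. Its close relative and neighbour Ddx50 (62615792 to 62658764) had 115, at a summit 193 bp downstream of a start that lies inside the annotated gene.

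Dhx33, linked to transcription by RNA polymerase I (chromosome 11, 70984091 to 71004533), had a score of 199. Ddx31 (chromosome 2, 28840406 to 28905575) had 186, Ddx51 (chromosome 5, 110653432 to 110663019) had 139 and Ddx27 (chromosome 2, 167015313 to 167034945) had 138. All 3 act in maturation of the large ribosomal subunit. Ddx49 (chromosome 8, 70292866 to 70302471), of the small subunit pathway, had 130. Further scores were 129 at Ddx55, 122 at Ddx24, 119 at Ddx18, 106 at Ddx56, 86.1 at Dhx37, which releases a small nucleolar RNA from the small subunit precursor, 82.0 at Ddx10 and 76.1 at Ddx54. The lowest of this role were Ddx52 with 53.5 and Ddx47 with 26.0, both of the small subunit pathway. Scores within this single role thus spanned most of the range seen over all members.

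Splicing helicases drive the rearrangements of the spliceosome or load messenger RNA for export. All 12 genes of this role had a summit (exact interval 73.5 to 100%), with scores from 30.9 to 136 and a median of 87.0, and 10 of the 12 were at or above the median of all genes with a summit. The highest was Dhx16 with 136 (chromosome 17, 35879764 to 35892670), which acts when the spliceosome is activated. Ddx41 (chromosome 13, 55530410 to 55536658) and Ddx20 (chromosome 3, 105678270 to 105687788) both had 134. Ddx20 belongs to the SMN complex, which assembles spliceosomal small nuclear ribonucleoproteins. Ddx42, of the U2 particle, had 107, Dhx15, which takes spent spliceosomes apart, 92.9, and Ddx46, needed for branch site recognition, 90.3. The export helicase genes Ddx39a and Ddx39b, close relatives, had 83.7 and 57.7. Ddx23, which acts when U1 leaves the splice site, had 54.3, and Dhx8, which releases the spliced message, 49.3. Dhx35 had 34.5, and Dhx38, needed for the last catalytic step, had 30.9.

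**Figure D1:**
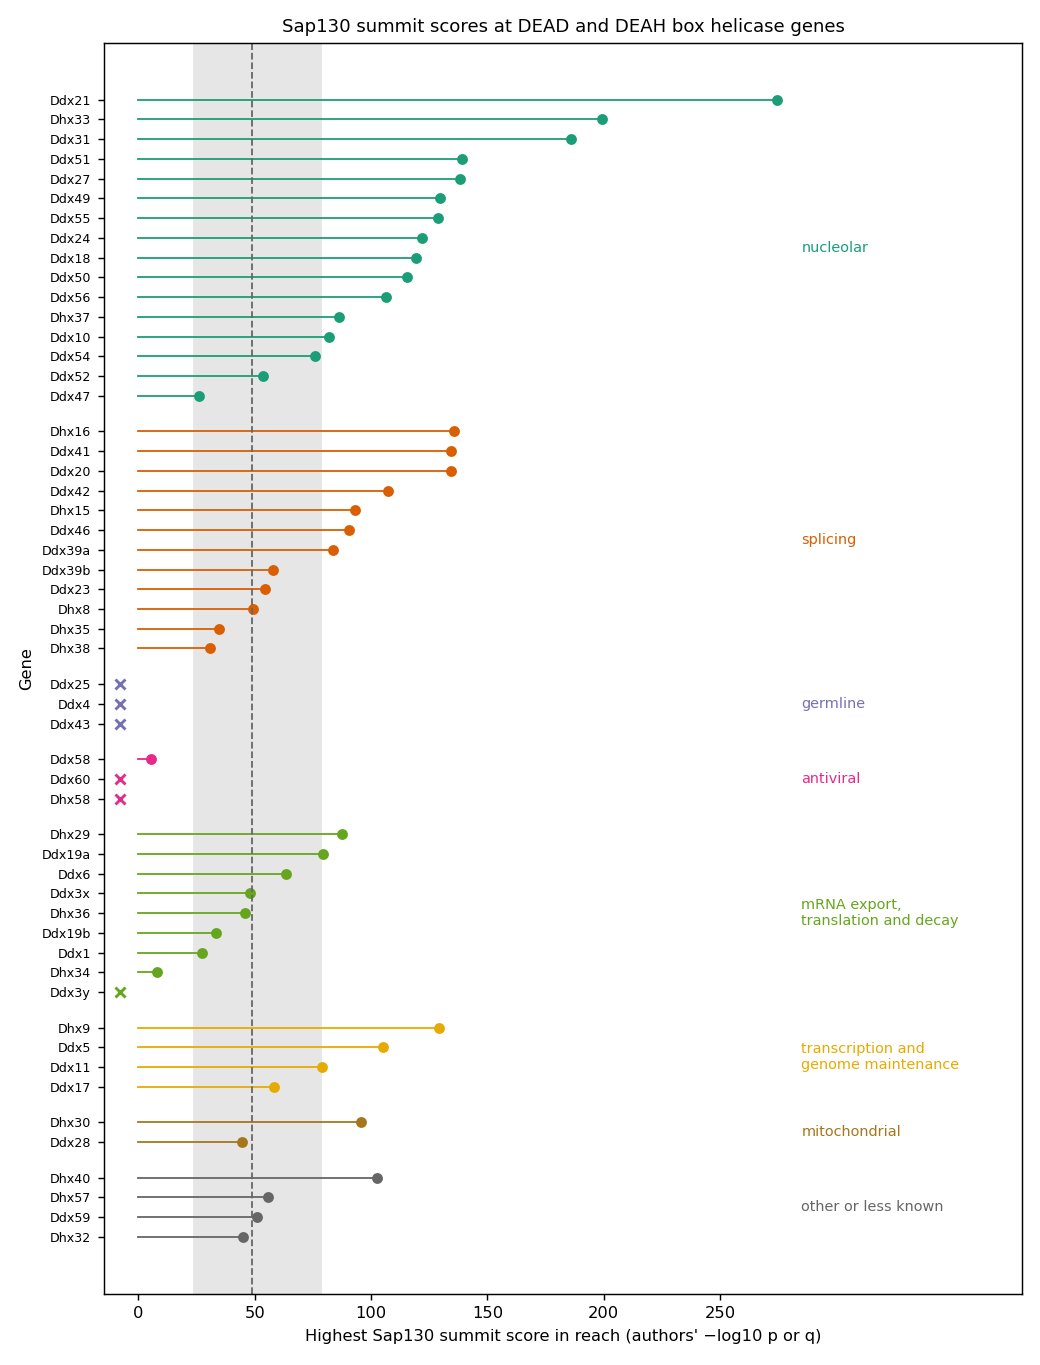
Highest Sap130 summit score in reach of each of the 53 helicase genes (x axis, the authors' −log10 p or q), grouped by role, with crosses for genes without a summit. The dashed line is the median over all genes with a summit (48.9) and the grey band their quartiles (23.9 and 78.6). Nucleolar genes reach 275, and the 3 germline genes are all crosses.

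The germline members had no summit in reach. Ddx4, the vertebrate Vasa homologue and a marker of germ cells (chromosome 13, 112598333 to 112652633), had its nearest summit 8341 bp outside the gene, with a score of 17.4, in reach of Slc38a9. Ddx25, a testis helicase needed to complete sperm formation (chromosome 9, 35541848 to 35558470), had its nearest 1110 bp outside, with 19.0, in reach of Pus3 and just beyond the window. For Ddx43, expressed in testis and some tumours (chromosome 9, 78395777 to 78423589), the nearest lay 19294 bp outside, with 7.32. With 0 of 3, the exact interval for this role runs from 0 to 70.8%, which holds the 55.0% of all genes.

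The 3 members placed in the antiviral role had little or no Sap130 signal in this list. Since each member was given 1 role, a helicase with a further role in the antiviral response would be counted elsewhere. Ddx58, which encodes the viral RNA sensor RIG-I (chromosome 4, 40203777 to 40239825), had 1 summit of score 5.20, 836 bp downstream of its start, near the list's lowest score of 2.1. Dhx58, which encodes the related LGP2 (chromosome 11, 100694884 to 100704271), had none, the nearest lying 8038 bp outside with a score of 135, in reach of Kat2a. Ddx60, induced by interferon (chromosome 8, 61928073 to 62037704), had none within 25530 bp, where the nearest scored 4.63. The exact interval for 1 of 3 is 0.840 to 90.6%, which holds the 55.0% of all genes.

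Genes for helicases of export, translation and decay carried summits in 8 of 9 cases, with a median score of 46.9. The exact interval, 51.8 to 99.7%, holds the 55.0% of all genes. Of the 8, 3 were at or above the median of all genes with a summit. Dhx29, which helps the small ribosomal subunit scan structured leaders, had the highest, 87.6. Ddx19a and Ddx19b, neighbouring paralogs that remodel messenger RNA at the nuclear pore, had 79.4 and 33.5. Ddx6, of decapping and P bodies (chromosome 9, 44602983 to 44640731), had 2 summits of nearly equal score, 63.2 and 62.5, at 1444 and 2104 bp inside the gene. Ddx3x, a translation helicase on the X chromosome (13280496 to 13293988), had 34.0 at 188 bp and 47.9 at 1141 bp downstream of its start. Its Y-linked paralog Ddx3y (1260715 to 1286628) had none, and the list holds 0 summits on the Y chromosome. Dhx36, which resolves G-quadruplexes, had 45.8, Ddx1, of the tRNA ligase complex, 27.2, and Dhx34, of nonsense-mediated decay, 7.77, a weak summit like that of Ddx58.

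The 4 members linked to transcription and genome maintenance all had a summit at or above the median of all genes with one. Dhx9, a nuclear helicase with double-stranded RNA binding domains (chromosome 1, 153455756 to 153487688), had 129. The paralogs Ddx5 and Ddx17, coactivators that also act in microRNA processing, had 105 and 58.4. Ddx11, a DNA helicase of sister chromatid cohesion, had 78.8. Of the mitochondrial pair, Dhx30 (chromosome 9, 110084319 to 110117616) had 95.7 and Ddx28 (chromosome 8, 106009616 to 106011486) had 44.5, and both proteins act in assembly of the mitochondrial ribosome. The 4 remaining members had 102 at Dhx40, 55.9 at Dhx57, 50.8 at Ddx59 and 44.8 at Dhx32.

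In the ranking of all 11972 genes with a summit, 27 of the 47 members stood above the upper quartile (background 25.0%) and 2, Ddx58 and Dhx34, below the lower quartile (background 25.0%). The paralog pairs differed in score within each pair, Ddx21 and Ddx50 most in these values, 275 and 115. No replicate was at hand to say how far scores of a pair would vary between libraries.

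Other genes of the same pathways, 109 in all with 5 in 2 lists, were set beside the members and the share of all genes with a summit, 55.0%. These lists, like the roles, were chosen with earlier results of these data known, so they are no independent support for the contrast between roles. All 24 nucleolar partners had a summit, with a median score of 130, led by the nucleolin gene Ncl (428), Gar1 (275), of H/ACA particles, and Utp20 (262), of the small subunit processome. Spliceosome partners also had one in 24 of 24, with a median of 64.9, led by Crnkl1 (180), Gemin5 (120) and Alyref (118). Germline partners had one in 3 of 21 cases (14.3%, exact interval 3.05 to 36.3), namely Tdrd7 with 88.2, Dazl with 15.0 and Tdrd5 with 9.91, while Asz1, Gtsf1 and Mael were among those without. Antiviral partners had one in 8 of 23 (34.8%, 16.4 to 57.3, an interval that holds the 55.0% of all genes), among them Tbk1 (56.8) and Irf3 (56.3), while Ifih1, the third sensor of the RIG-I family, Ifit1 and Ifit3 had none. Their median score was 32.0.

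RNA helicases with other symbols had a summit in 16 of 22 cases (72.7%, 49.8 to 89.3, an interval that also holds the 55.0% of all genes), with a median score of 70.6. The highest were Upf1, of nonsense-mediated decay, with 140, the translation helicase gene Eif4a1 with 123 and the mitochondrial Supv3l1 with 89.4. The 6 without a summit were Dqx1, Helz2, the antiviral sensor gene Ifih1, and the germline genes Mov10l1, Tdrd9 and Tdrd12, the last 3 named after their values were seen. Ifih1 also stands in the antiviral list and the 3 germline genes in the germline list. Mtrex, among the 16, was counted by its only summit (87.6), which it shares with the member Dhx29.

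**Figure D2:**
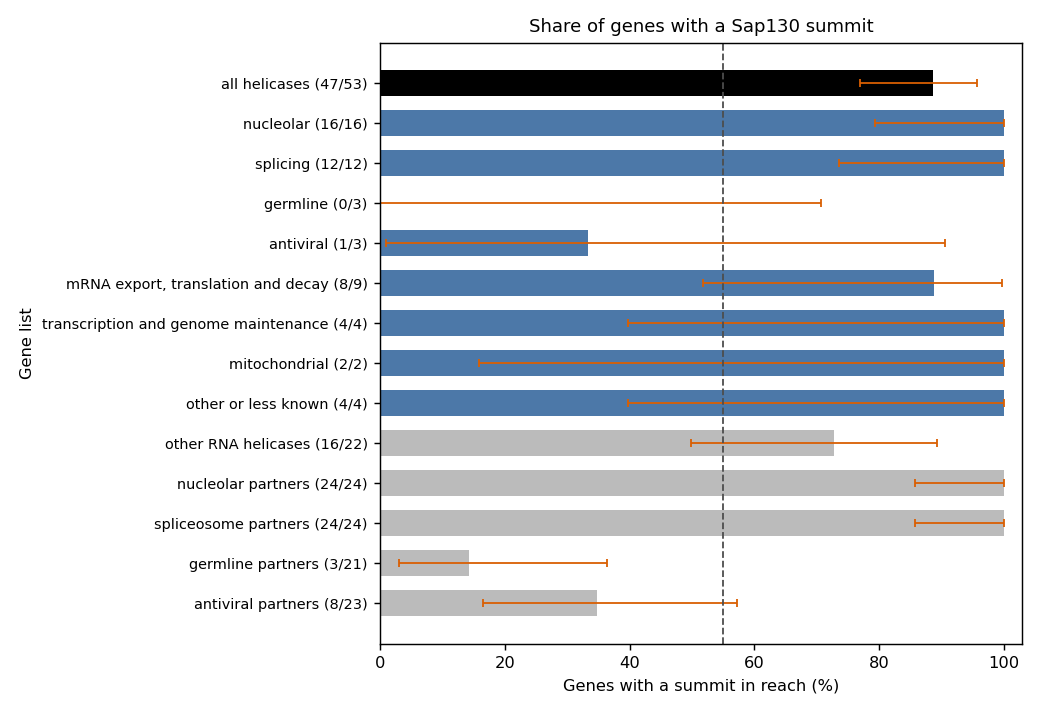
Percent of genes with a Sap130 summit within 1000 bp of a boundary or inside (x axis) for all helicases (black), their roles (blue) and lists of other genes (grey), with the counts in the labels and exact 95% intervals as orange bars. The dashed line is the share of all protein-coding genes (55.0%). Nucleolar and splicing lists stand at 100%, and germline lists at 0 and 14.3%.

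With strand and start sites, the summits of helicase genes could be placed more closely than by gene boundaries. A listed start was at hand for 47 members, and 42 of these had a summit within 1000 bp of a start (background 52.2%). These 42 were all the members that had both a summit and a listed start. Of all genes with both, 94.6% had a summit at a start. The highest summit at a start lay a median of 177 bp downstream of it (quartiles 140 and 206 bp), and over all genes the median was 179 bp (quartiles 104 and 244 bp). It lay 100 to 300 bp downstream in 33 of 42 members (background 60.2%). Only Dhx30 had it upstream, by 4 bp (1 of 42, background 17.4%). The farthest downstream was Ddx58, at 836 bp, followed by Dhx57 at 471 bp, Dhx15 at 447 bp and Ddx17 at 381 bp.

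**Figure D3:**
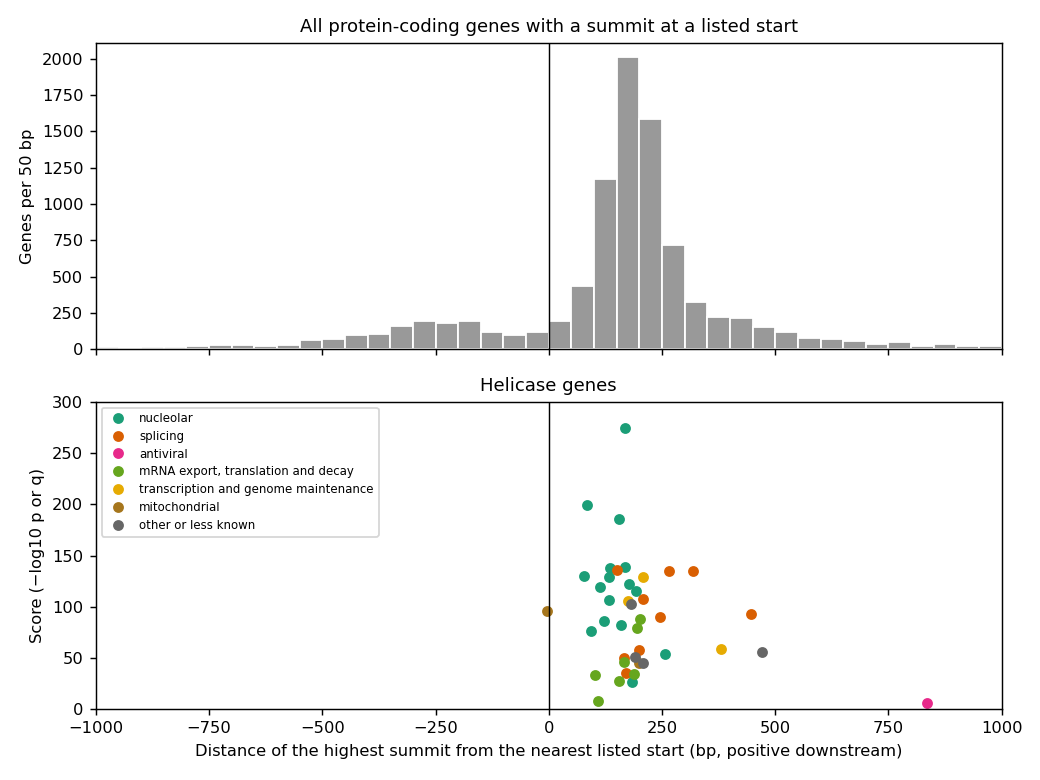
Distance of the highest summit from the nearest listed start (x axis, bp, positive downstream). The upper panel counts all 9128 protein-coding genes with a summit at a start in 50 bp bins, and the lower panel plots 42 helicase genes against score (−log10 p or q), coloured by role. Most helicase points lie between 100 and 300 bp downstream, and Ddx58 stands apart at 836 bp with a score of 5.20.

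In 5 members the summits lay only deeper than 1000 bp inside the gene (background 12.0% of genes with a summit). Of these, 4 had a listed start close by. The summit was 101 bp downstream of a start in Ddx19b, 193 bp in Ddx50, 132 bp in Ddx56 (chromosome 11, 6257545 to 6269786) and 207 bp in Dhx32 (chromosome 7, 133720935 to 133782785). The same held for 81.1% of the 1174 such genes with a listed start over all. The fifth was Ddx6.

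Of the 47 members with a summit, 12 shared their highest summit with another protein-coding gene (background 25.4%). These were Ddx31 with Gtf3c4, Ddx51 with Noc4l, Ddx49 with Cope, Ddx54 with Rita1, Ddx42 with Ccdc47, Dhx38 with Txnl4b, Dhx29 with Mtrex, Ddx19b with Aars, Ddx28 with Dus2, Ddx5 with Cep95, Dhx32 with Fank1 and Dhx57 with Morn2. The shared summit lay downstream of the helicase gene's own start in all 11 that have a listed start (background 60.9%) and upstream of the neighbour's nearest start in all 12 (background 40.6%). At Ddx31, the distances were 154 bp downstream of its start and 200 bp upstream of that of Gtf3c4, a subunit of a polymerase III factor. At Dhx29 they were 201 bp downstream and 501 bp upstream of the start of Mtrex, itself an RNA helicase of the nuclear exosome. Not all of these starts were close: the nearest listed start of Aars lay 6173 bp from the Ddx19b summit, and that of Cep95 934 bp from the Ddx5 summit.

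More than 1 summit was in reach of 10 members, each with 2 (18.9%, background 15.9%). In 4 of them the weaker summit lay just downstream of a neighbour's start. It was 230 bp downstream of that of Ccdc47 at Ddx42 (30.3), 157 bp of Rita1 at Ddx54 (36.5), 241 bp of Txnl4b at Dhx38 (14.3) and 159 bp of Polg2 at Ddx5 (89.1), the last of these 977 bp outside Ddx5 and close to the edge of the window. At Ddx20, Dhx15 and Ddx39b a weak summit stood 283, 235 and 542 bp upstream of the start, with scores of 15.5, 14.9 and 7.45, and no other protein-coding gene in reach. Dhx30 had its second summit, of score 69.0, 139 bp downstream of an inner start. Ddx3x and Ddx6 had both summits inside the gene, as described above.

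Promoters without a summit differed widely in CpG content. In the 300-base window around each start (250 bases before and 50 after, the richest window of a gene), members had a median of 24 CpG, against 15 over all genes with a listed start and 24 over those of them with a summit at a start. Of all genes with 20 or more CpG, 91.0% had a summit at a start, and of the members 33 of 36 did. The 3 that did not were the germline genes Ddx4 (38 CpG), Ddx25 (41) and Ddx43 (30), chosen for mention after their values were seen. Ddx25 had the most CpG of the members with a listed start. Of all genes with 30 or more CpG, 94.3% had a summit at a start, whereas with 9 or fewer 6.54% did, and Ddx60 was in that class with 6. Ddx3y had 17 CpG and Ddx58 had 15, in a class in which 68.7% of all genes had a summit at a start. Dhx57 went the other way, with 8 CpG and a score of 55.9, but at a summit shared with Morn2. That summit lay 471 bp downstream of the Dhx57 start and 207 bp upstream of the Morn2 start.

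**Figure D4:**
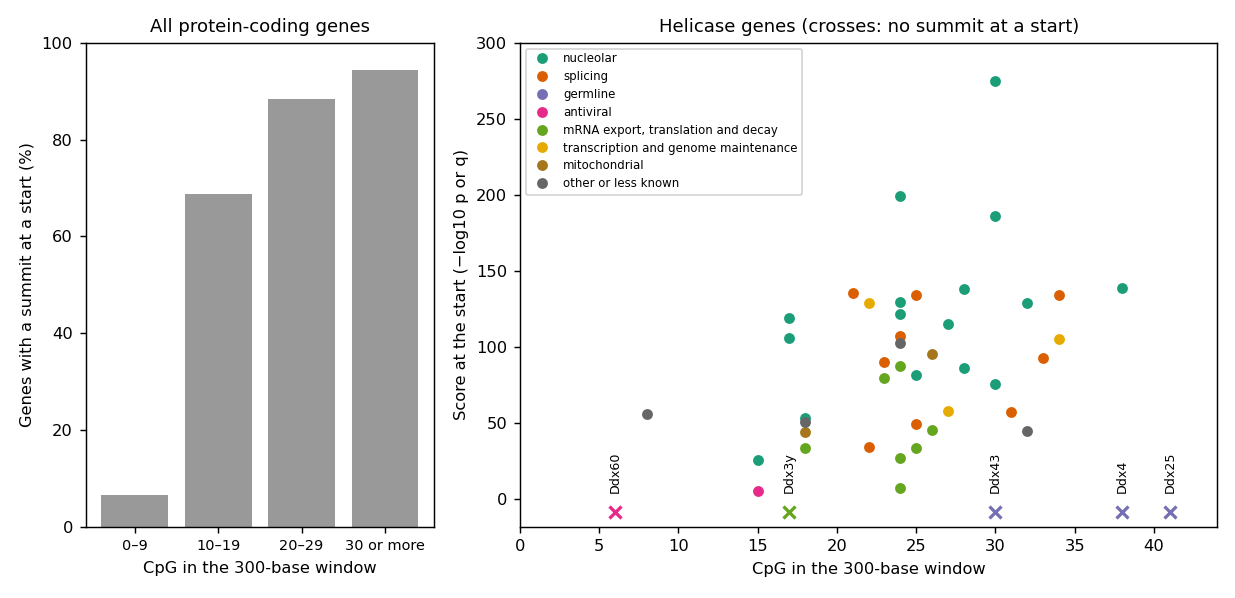
Left, percent of all protein-coding genes with a summit within 1000 bp of a listed start, by number of CpG in the 300-base promoter window. Right, score at the start (−log10 p or q) against CpG for 47 helicase genes, coloured by role, with crosses for the 5 without a summit at a start. Ddx4, Ddx25 and Ddx43 lie at 30 to 41 CpG without a summit, and Ddx60 lies at 6.

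Short motifs were searched on both strands of the 300-base windows, over all listed starts of a gene, as matches of letters and not as binding sites. Shares of members are over all 47, of which 5 had no summit at a start. CCGGAAG, a form of the ETS motif, was in 19 of 47 members (40.4%), 12.9% of all genes and 21.5% of those with a summit at a start. TGACGTC, of the cAMP response element, was in 7 members (14.9%), in 4.35% of all genes and in 6.76% of those with a summit at a start. ATGGCGG, of YY1, was in 7 (14.9%, all genes 6.05%, with a summit 10.3%), and GCATGCG, of NRF1, in 6 (12.8%, all genes 4.96%, with a summit 8.12%). GGGCGG, of Sp and Klf factors, was in 33 (70.2%), which compares with 49.2% of all genes and 74.5% of those with a summit. CACGTG, the E-box read by Myc and its relatives, was in 7 (14.9%, all genes 8.91%, with a summit 12.46%), among them Dhx33, Ddx4 and Ddx25. CCAAT, of NFY, was in 23 (48.9%, all genes 42.3%, with a summit 42.9%). GCGGGAA, of E2F, was in 4 (8.51%, all genes 6.84%, with a summit 10.8%), and TCTCGCG in 3 (6.38%, all genes 3.93%, with a summit 6.86%). TATAAA was in 6 (12.8%), below the 14.8% of all genes and above the 7.60% of those with a summit. At Ddx17, Ddx50 and Dhx32 these letters were only in the window of a start other than the one near the summit, and Ddx60 had no summit. Of the 42 members with a summit at a start, CCGGAAG was in 19, TGACGTC and ATGGCGG in 7 each, and GCATGCG in 6. GGGCGG was in 30 of these 42, CCAAT in 19, CACGTG and TATAAA in 5 each, and GCGGGAA and TCTCGCG in 3 each. These counts are also over all listed starts, so the letters need not be in the window nearest the summit. Besides TATAAA, they were only at another start for CACGTG at Ddx42 and Ddx5 and CCGGAAG at Ddx5. The same held for ATGGCGG and GCATGCG at Ddx19b, and for CCAAT at Ddx5 and Ddx19b. CACGTG and GGGCGG were both in the windows of Ddx4 and Ddx25, so these letters occurred with and without a summit.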

How the data were processed

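Sap130 binding was measured in 1 ChIP-seq library against 1 input library. Per the submitters' processing notes, Bowtie 1.1.2, MACS2 2.1.0.20140616 and build GRCm38 (mm10) were used; settings, threshold and the handling of duplicate reads are not stated. The authors deposited 1-base summits with a −log10 score, of a p-value or a q-value. Depth is unknown, and the score rises with depth, so it ranks summits only within this list.

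Genes came from RefSeq GRCm38.p6, with 121 protein-coding genes left out as mitochondrial, on no named chromosome, or (Y apart) starting within 3 Mb of a chromosome's first base. Starts, strands and sequences came from a RefSeq promoter table that matched 47 members; Ddx6, Ddx11, Ddx23, Ddx39a, Dhx38 and Dhx58 had no entry. Intervals are exact (Clopper-Pearson, 95%), and no p-value was computed. The gene assignment was tested on simulated summits. Python 3.11.15, numpy 2.4.6, pandas 2.3.3, scipy 1.17.1 and matplotlib 3.10.9 were used.

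Members, roles and lists were chosen with earlier results of these data known. Named in full were the 10 highest-scoring members, the germline, antiviral and mitochondrial ones, those with no, several, deep or shared summits, and paralogs, plus the 3 highest and up to 3 without a summit of each other list. One gene that this rule takes is not reported here. CpG counts, starts of neighbouring genes, length classes and the background of genes with a listed start were added after seeing the data. Helicase protein motifs and paralog identity were not analysed here. Alternatives were windows of 500 and 2500 bp, higher-scoring or unshared summits, merging within 500 bp, starts or boundaries only, any gene type, and a background without olfactory and vomeronasal receptors.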

Additional observations from a re-analysis of the deposited data

How the results depend on the processing

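With 1 library there is no error between samples, and no paired analysis was possible because there is 1 ChIP library and 1 input. Of 86 values computed under the alternatives, 73 stayed close to the value reported, and 13 did not, where close means within 1.5 times for a count and within its own 95% interval for the median score and the share of all genes. A window of 2500 bp gave 1 germline member of 3 with a summit, Ddx25, in place of 0. With summits at or above the median score, 42 members kept a summit (79.2%, all genes 36.0%) and the antiviral count was 0. With the 3728 summits of highest score, 28 members had one (52.8%, all genes 19.5%), 26 of them within 1000 bp of a boundary, and the median score was 111 since low scores were removed. The counts by role were then 14 of 16 for nucleolar, 7 of 12 for splicing and 3 of 4 for transcription and genome maintenance. They were 0 for germline, 0 for antiviral, 2 for export, translation and decay, 1 for mitochondrial and 1 for the remaining members. With summits in reach of 1 protein-coding gene only, 35 members had one (66.0%, all genes 42.4%), with 1 mitochondrial and 2 of the remaining members. Without olfactory and vomeronasal receptor genes, the share of all genes with a summit was 58.9% in place of 55.0%. The unknown depth limits what the absence of a summit shows: it means only that none was called.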
